A study of Mus musculus with 12 samples.

Results

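Cdk5, Cdkn1a, Cdkn1b and Btg2 were taken by gene name from an expression table of 11669 mouse genes, and all 4 were present. They passed the filter on low values, Cdkn1b only through libraries of PBS and NP@M. RNA was sequenced in 12 libraries, 3 in each of 4 treatment groups, after 24 h. The groups without D are PBS and NP@M, and those with D are NP-D@M and, with a further P in the label, NP-D@MP. The labels describe the cells as TAMC, an immune cell from marrow, and the series title names CDKs as the target of a nanodrug. They do not spell out NP, M, P or D, so the groups are called here by their labels. No strain, age, genotype or dose is labelled. Whether libraries of a group are separate cultures or animals is not labelled, and each p-value reflects spread among libraries that may be technical.

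Cyclin-dependent kinases (CDKs) are protein kinases that need a partner subunit, usually a cyclin, to be active. Cdk5 is an atypical member: it is activated by the non-cyclin proteins p35 and p39, is best known from neurons, and in tumour cells was linked to the induction of PD-L1 by interferon. Cdkn1a (p21) and Cdkn1b (p27) are inhibitor proteins that bind cyclin-CDK complexes and hold back the cell cycle. p21 is a classical target gene of p53, and p27 is controlled largely through its degradation by a ubiquitin ligase that contains Skp2. Btg2 is an antiproliferative protein of the BTG and TOB family, also a p53 target, which binds the CCR4-NOT complex and promotes removal of mRNA tails.

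Positions are given on GRCm38 (GENCODE release M21). Cdk5 (ENSMUSG00000028969) lies on the minus strand at chr5:24418241-24423530, Cdkn1a (ENSMUSG00000023067) on the plus strand at chr17:29090976-29100727, Cdkn1b (ENSMUSG00000003031) on the plus strand at chr6:134920401-134925513, and Btg2 (ENSMUSG00000020423) on the minus strand at chr1:134075170-134079120. An antisense gene, AC167363.2, overlaps Cdkn1a over 1046 bases (chr17:29093416-29094461). Whether reads were counted by strand is not given in the sources used here. The deposited value of AC167363.2 ran from 0 to 0.611 FPKM (fragments per kilobase of gene, scaled by library size) without D and from 0.821 to 3.98 FPKM with D. It reached at most 0.611 FPKM in a library where Cdkn1a was 82.3 FPKM, but with D it came nearer, with 3.98 against 9.90 FPKM in NP-D@M replicate 1 and 3.89 against 6.80 FPKM in NP-D@MP replicate 3.

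No promoter window of Cdk5 was in the source used here, so the gene that rose cannot be set beside the others. The windows of Cdkn1a, Cdkn1b and Btg2, whose RNA was lower with D, are shown as a description. Each runs from 250 bases before to 50 after an annotated start, 5′ to 3′ along the gene's strand, and comes from RefSeq on GRCm38.p6. Btg2 spans chr1:134079106-134079405 on the minus strand and Cdkn1b chr6:134920151-134920450 on the plus strand. Cdkn1a has a window at each of 2 starts, chr17:29090729-29091028 (start 1) and chr17:29093519-29093818 (start 2), both on the plus strand. Capitals mark matches, on either strand, to CCAAT (the CCAAT box), GGGCGG (the GC box), CGTCA (part of the cAMP response element) and the p53 consensus decamer. TATAAA (the TATA box), TGACTCA (the AP-1 site) and CACGTG (the E-box) were searched as well and had no match in these windows.
Btg2: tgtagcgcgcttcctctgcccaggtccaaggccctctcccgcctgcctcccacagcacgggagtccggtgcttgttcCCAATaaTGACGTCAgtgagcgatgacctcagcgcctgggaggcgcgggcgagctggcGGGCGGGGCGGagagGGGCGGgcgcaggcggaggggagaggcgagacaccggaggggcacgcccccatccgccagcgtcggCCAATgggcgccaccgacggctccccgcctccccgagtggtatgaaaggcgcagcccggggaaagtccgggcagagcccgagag
Cdkn1b: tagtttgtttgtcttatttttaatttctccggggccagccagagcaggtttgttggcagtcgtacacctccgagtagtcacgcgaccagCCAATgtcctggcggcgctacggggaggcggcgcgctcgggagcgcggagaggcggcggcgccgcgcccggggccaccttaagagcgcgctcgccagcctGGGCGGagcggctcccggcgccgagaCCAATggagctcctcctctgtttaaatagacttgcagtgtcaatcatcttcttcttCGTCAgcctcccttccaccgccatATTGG
Cdkn1a start 1: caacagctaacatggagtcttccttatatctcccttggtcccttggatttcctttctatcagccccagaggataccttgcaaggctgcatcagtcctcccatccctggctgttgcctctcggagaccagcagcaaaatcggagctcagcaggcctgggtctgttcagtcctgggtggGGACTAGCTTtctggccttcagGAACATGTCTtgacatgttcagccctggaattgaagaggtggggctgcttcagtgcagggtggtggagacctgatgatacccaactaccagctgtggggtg
Cdkn1a start 2: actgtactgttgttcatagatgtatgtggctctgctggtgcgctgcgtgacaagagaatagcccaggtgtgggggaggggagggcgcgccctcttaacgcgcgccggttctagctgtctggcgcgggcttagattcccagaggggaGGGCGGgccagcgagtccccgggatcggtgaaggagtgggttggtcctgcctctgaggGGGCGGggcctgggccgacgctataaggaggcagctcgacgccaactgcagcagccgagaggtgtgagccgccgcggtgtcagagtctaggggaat

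The 4 windows shared no single motif. The Btg2 window held 2 CCAAT matches, 3 GC boxes (of which 2 overlap by 1 base) and 2 overlapping CGTCA matches on opposite strands, which form the palindrome TGACGTCA from -166 to -159. The Cdkn1b window held 3 CCAAT matches, 1 GC box and 1 CGTCA match. The window at Cdkn1a start 1 held only a pair of p53 decamers, from -73 to -64 and from -51 to -42, and that at start 2 held only 2 GC boxes. Among all 32851 windows of this length, 37.4% held CCAAT, 35.7% a GC box, 20.8% CGTCA and 8.36% a p53 decamer. A pair of p53 decamers at most 13 bases apart was found in 24 windows (0.0731%). These are letter matches, not measured binding sites.

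**Figure D1:**
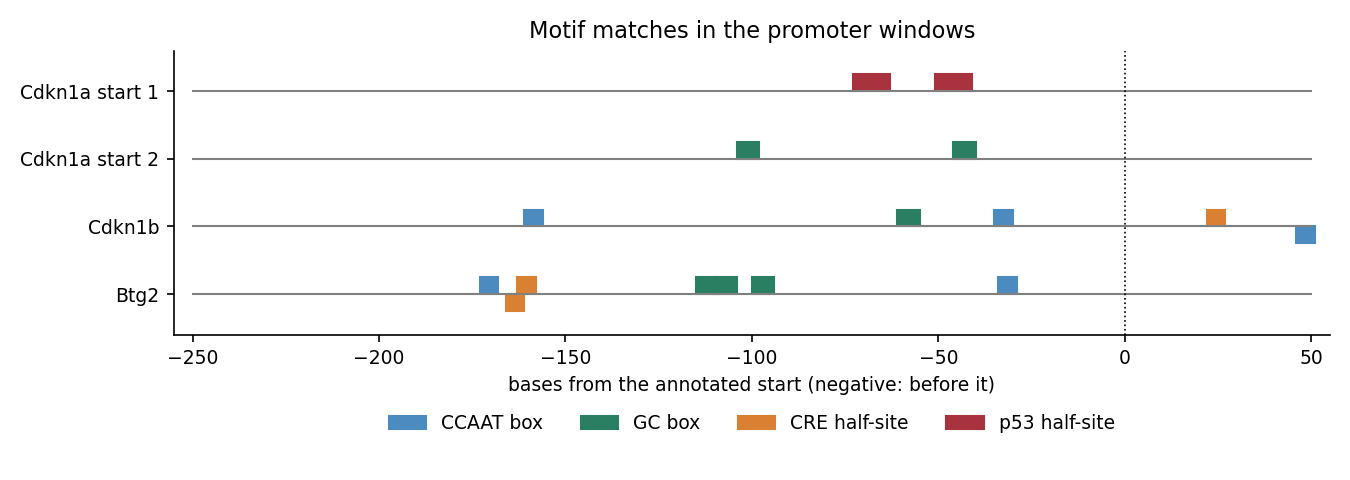
Motif matches in the 4 promoter windows, plotted by distance in bases from the annotated start (x axis), with 1 row per window and colour for the motif. Btg2 and Cdkn1b carry CCAAT, GC box and CGTCA matches, whereas start 1 of Cdkn1a carries only the pair of p53 decamers.

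The labelled immune cell origin was checked against markers. Of the granulocyte markers 13 of 14 were in the table and 6 averaged at least 50 FPKM, led by Mmp8, and of the monocyte and macrophage markers 15 of 15 were in the table and 8 averaged that much, led by Lyz2 and Cd68. Others were low, such as Mpo at 1.54 and Ccr2 at 0.53 FPKM. Only 1 of 7 B cell, 2 of 8 T and NK cell and 3 of 12 retina and neuron markers were in the table. Of these Ms4a1, Klrb1c and Sag were near 0, and Cd4, Rbpms and Syn1 averaged 1.61, 2.52 and 1.56 FPKM. Stromal and endothelial markers (5 of 9 in the table, led by Vwf) summed to 9.11 to 17.5 FPKM without D and 47.3 to 76.5 FPKM with D. With read totals they overlapped (21.3 to 38.7 without D, 25.7 to 38.6 with D). The summed monocyte and macrophage markers ran from 2876 to 4211 FPKM without D and from 31305 to 41978 FPKM with D. The sum was also higher with D when scaled to read totals (6654 to 9219 against 16506 to 20256). It rests mostly on Lyz2 (mean 15308 FPKM) and does not speak for each marker. Csf1r, for example, ran only from 51.9 to 148 FPKM over all libraries, and directions of single markers were not counted. Granulocyte markers ran from 1595 to 2537 FPKM without D and from 5345 to 8161 FPKM with D, with Mmp8 the largest part (mean 2453 FPKM). Scaled to read totals they overlapped, with 3690 to 5690 without D and 2639 to 4052 with D. Dendritic cell markers ran from 78.1 to 111.1 FPKM without D and from 484.5 to 714.8 FPKM with D. Nearly all of this sum was Itgax (mean 334 FPKM), while Ccr7, the next highest of the list, averaged 5.13 FPKM. With read totals the sums overlapped (182.8 to 257.1 without D, 236.2 to 344.9 with D). The summed erythroid and megakaryocyte list, nearly all of it Pf4, ran from 231 to 973 FPKM without D and from 17667 to 24713 FPKM with D, while Gata1 of that list reached 0.175 FPKM at most. The part of these differences in the changes below was not tested. In bulk RNA, fewer cells of a type and less RNA per cell cannot be told apart.

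The scale of the deposited values also differed between the groups. Reads recovered from the values totalled 14.4 M to 17.3 M per library. Read as FPKM, however, the values imply a library size of 2.19 to 2.36 times that total without D and 0.468 to 0.553 times with D. Results were therefore also computed with values scaled to the total of the recovered reads ("read totals"), which are given beside the main changes and wherever they alter a call or direction. For the median gene, NP-D@M minus NP@M was 0.16 on the log2 scale with the deposited scaling, -1.47 with read totals, 0.56 after levelling the medians and -0.06 after quantile normalization. In libraries with D, 8.94% to 13.4% of genes were at 0. Among libraries without D, 2 differed from the rest: 9.31% of genes were at 0 in PBS replicate 3 and 9.11% in NP@M replicate 2, against 2.65% to 2.96% in the other 4. The main results are also given without these 2 libraries.

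Cdk5, the kinase, was the only one of the 4 genes with higher FPKM with D. It stood at 5.58, 4.75 and 3.89 FPKM in PBS replicates 1 to 3 and at 5.16, 3.51 and 4.36 FPKM in NP@M. With D it stood at 20.9, 26.5 and 21.2 FPKM in NP-D@M and at 17.6, 27.6 and 35.9 FPKM in the NP-D@MP libraries. All 6 libraries with D lay above all 6 without, the lowest values without D were those of the libraries that stood apart, and NP-D@MP spread the most. Such separation is common here: 93% of tested genes did not overlap between NP-D@M and NP@M. The share for 6 against 6 libraries was not computed. The mean rose from 4.34 ± 0.82 FPKM (SD, n = 3) in NP@M to 22.9 ± 3.2 FPKM (SD, n = 3) in NP-D@M, 5.26-fold. The fitted change on the log2(FPKM + 1) scale, which understates changes of low genes, was 2.16 (SE 0.25; 95% interval 1.62 to 2.71; limma adjusted p = 1.1e-05).

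The reads behind Cdk5 did not follow that rise. The gene had 416, 393 and 267 reads in PBS and 395, 268 and 356 reads in NP@M. With D it had 391, 451 and 408 reads for NP-D@M, then 333, 488 and 612 for NP-D@MP. Scaled to gene length and the read total of the table, this came to 12.1, 8.13 and 10.3 for NP@M and 11.5, 12.8 and 11.2 for NP-D@M, so the groups overlapped. On this scale 76.8% of all tested genes had groups that did not. With read totals the log2 change was 0.22 (95% interval -0.31 to 0.74; limma adjusted p = 0.436) and the call was lost. Within a library the rank of Cdk5 by FPKM, which does not depend on the scaling, lay at the 62.1st to 71.5th percentile of the table without D and at the 82.6th to 87.1st with D. Relative to the median gene Cdk5 was higher by 2.01 with the deposited scaling and by 1.68 with read totals. Whether Cdk5 was called higher therefore depended on the scaling, while its rank was higher in each library with D than in any without. The share of all genes whose ranks separate in this way was not computed, so that separation is not shown to be particular to Cdk5.

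Cdkn1a (p21) was the most abundant of the 4 without D and was about an order of magnitude lower with it. Its values were 82.3, 69.3 and 29.1 FPKM in PBS and 70.0, 40.6 and 73.5 FPKM in NP@M. With D they were 9.90, 6.03 and 6.44 FPKM for NP-D@M, then 6.95, 6.46 and 6.80 FPKM for NP-D@MP. The groups with D lay wholly below those without, where 93% of tested genes did not overlap between NP-D@M and NP@M. PBS replicate 3 and NP@M replicate 2 were the lowest of the libraries without D and still exceeded the highest with D. From NP@M to NP-D@M the mean fell 8.24-fold, from 61.4 ± 18.1 to 7.46 ± 2.13 FPKM (SD, n = 3 each), and the log2 change was -2.87 (SE 0.36; 95% interval -3.67 to -2.06; limma adjusted p = 2.43e-05). Reads fell from between 5079 and 9832 per library in NP@M to between 168 and 304 in NP-D@M, and with read totals the log2 change was -4.86 (limma adjusted p = 6.12e-07). Cdkn1a moved from the 94.6th to 97.5th percentile of the table to the 72.4th to 77.5th.

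Cdkn1b (p27) was near 4 FPKM without D and close to the detection limit with it. Its values were 4.70, 4.07 and 3.32 FPKM in PBS and 3.75, 3.33 and 4.13 FPKM in NP@M. With D they were 0.152, 0.196 and 0.198 FPKM for NP-D@M, then 0, 0.243 and 0.112 FPKM for NP-D@MP. These rest on 6, 7 and 8 reads and on 0, 9 and 4 reads, against 478 to 736 reads without D, and the count of 0 in NP-D@MP replicate 1 allows up to 0.0754 FPKM (3 reads, counting error only). No library with D came near one without, while 93% of tested genes did not overlap between NP-D@M and NP@M. The mean fell 20.5-fold from NP@M to NP-D@M, from 3.74 ± 0.40 to 0.182 ± 0.026 FPKM (SD, n = 3 each). The log2 change was -2.0 (SE 0.15; 95% interval -2.32 to -1.68; limma adjusted p = 4.55e-07), held small by the pseudocount of 1, and -3.15 with read totals (limma adjusted p = 1.26e-08). Cdkn1b passed the filter (at least 1 FPKM in at least 3 libraries) only through libraries without D. Its p-values therefore add no support to the fall.

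Btg2, the antiproliferative cofactor, fell as well. It stood at 20.4, 17.0 and 13.1 FPKM in PBS and at 17.96, 11.9 and 17.8 FPKM in NP@M. The NP-D@M libraries held 1.69, 1.07 and 0.863 FPKM, and the NP-D@MP libraries 0.375, 0.805 and 1.44 FPKM. The lowest library without D was 11.9 FPKM (NP@M replicate 2) and the highest with D was 1.69 FPKM, so the groups were far apart. Of all tested genes, 93% did not overlap between NP-D@M and NP@M. The mean fell 13.2-fold from NP@M to NP-D@M, from 15.9 ± 3.4 to 1.21 ± 0.43 FPKM (SD, n = 3 each). The log2 change was -2.93 (SE 0.26; 95% interval -3.50 to -2.36; limma adjusted p = 1.66e-06) and -4.53 with read totals (limma adjusted p = 2.25e-08). Reads ran from 1136 to 1921 per library without D and from 9 to 40 with D.

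**Figure D2:**
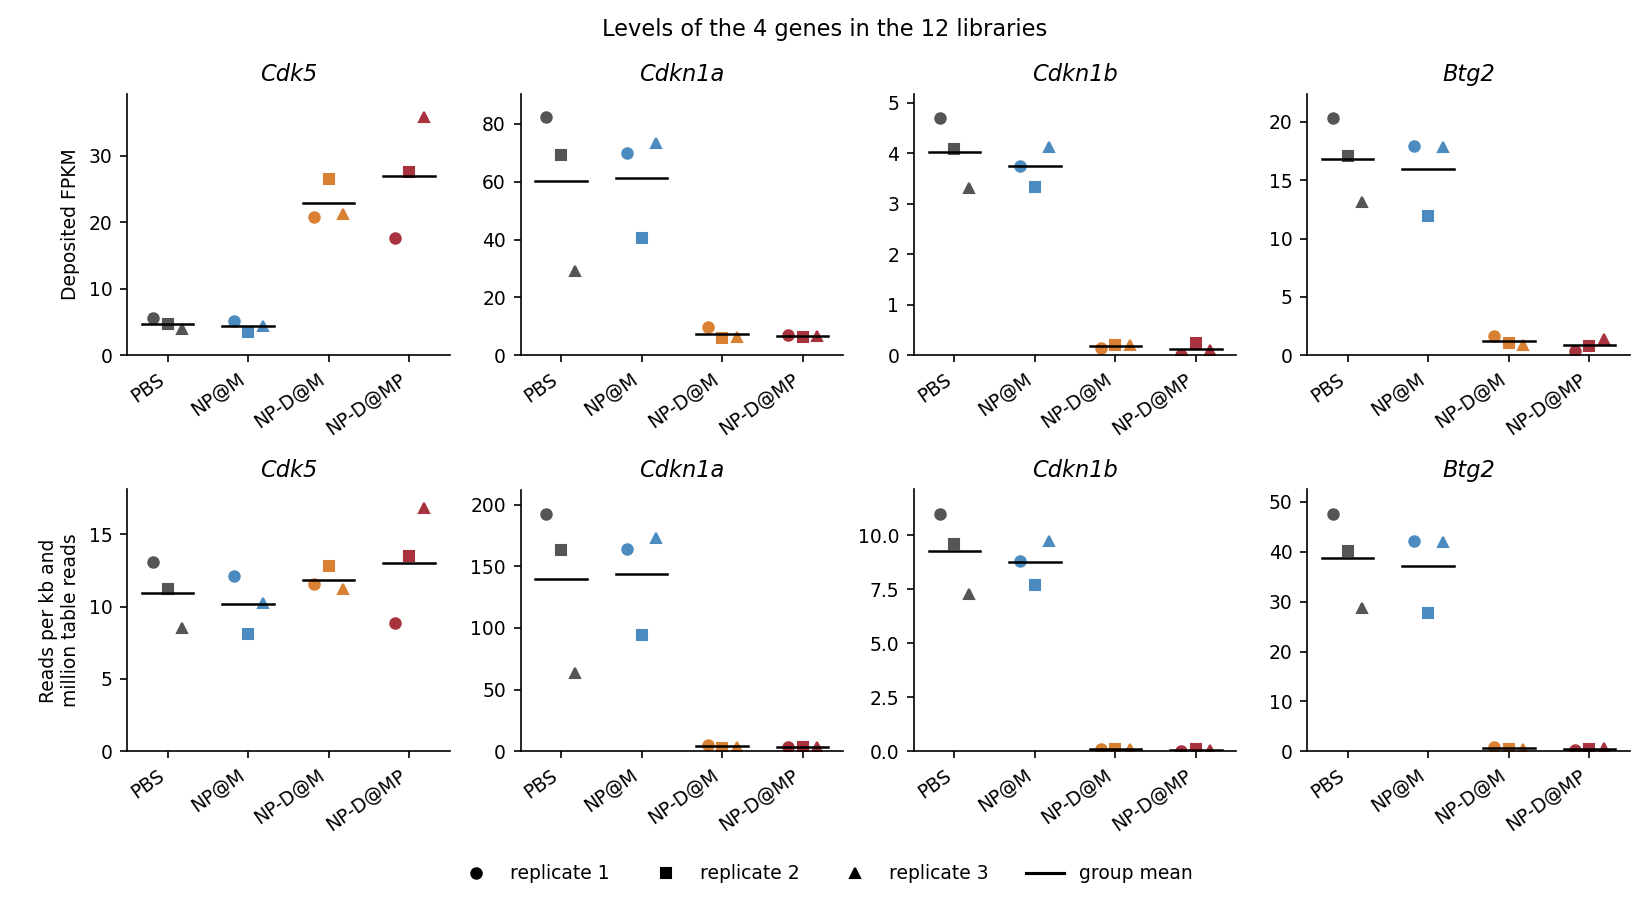
Values of the 4 genes in each of the 12 libraries (points) by group, with group means (n = 3). In FPKM, Cdk5 lies higher in NP-D@M and NP-D@MP than in PBS and NP@M, with no overlap between libraries with and without D. With read totals, Cdk5 overlaps between libraries with and without D. Cdkn1a, Cdkn1b and Btg2 lie lower with D, without overlap, both in FPKM and with read totals.

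All 4 genes passed the test between NP-D@M and NP@M, but so did 91.2% of the 8615 tested genes (45.2% higher and 46% lower), and the groups did not overlap for 93% of tested genes. Being called is therefore no distinction here, and the size of the change says more. On the log2(FPKM + 1) scale Btg2 and Cdkn1a ranked among the strongest falls of the table: 177 tested genes fell more than Btg2 and 200 more than Cdkn1a with the deposited scaling, and 161 and 87 with read totals. Cdkn1b was passed by 880 genes (1250 with read totals), and 1370 genes rose more than Cdk5 (1774 with read totals). That scale compresses low genes. By the ratio of means Cdkn1b fell the most of the 3, 20.5-fold against 13.2-fold for Btg2 and 8.24-fold for Cdkn1a, and with read totals 92.5-fold against 58.6-fold and 36.6-fold. Relative to the median gene, Cdkn1a changed by -3.02, Cdkn1b by -2.16 and Btg2 by -3.09 with the deposited scaling, and by -3.39, -1.68 and -3.07 with read totals. With read totals 70.8% of the tested genes passed, 9.12% higher and 61.7% lower. Without PBS replicate 3 and NP@M replicate 2 the 4 changes were 2.05, -3.13, -2.06 and -3.12 for Cdk5, Cdkn1a, Cdkn1b and Btg2, and all 4 stayed past the threshold in limma.

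**Figure D3:**
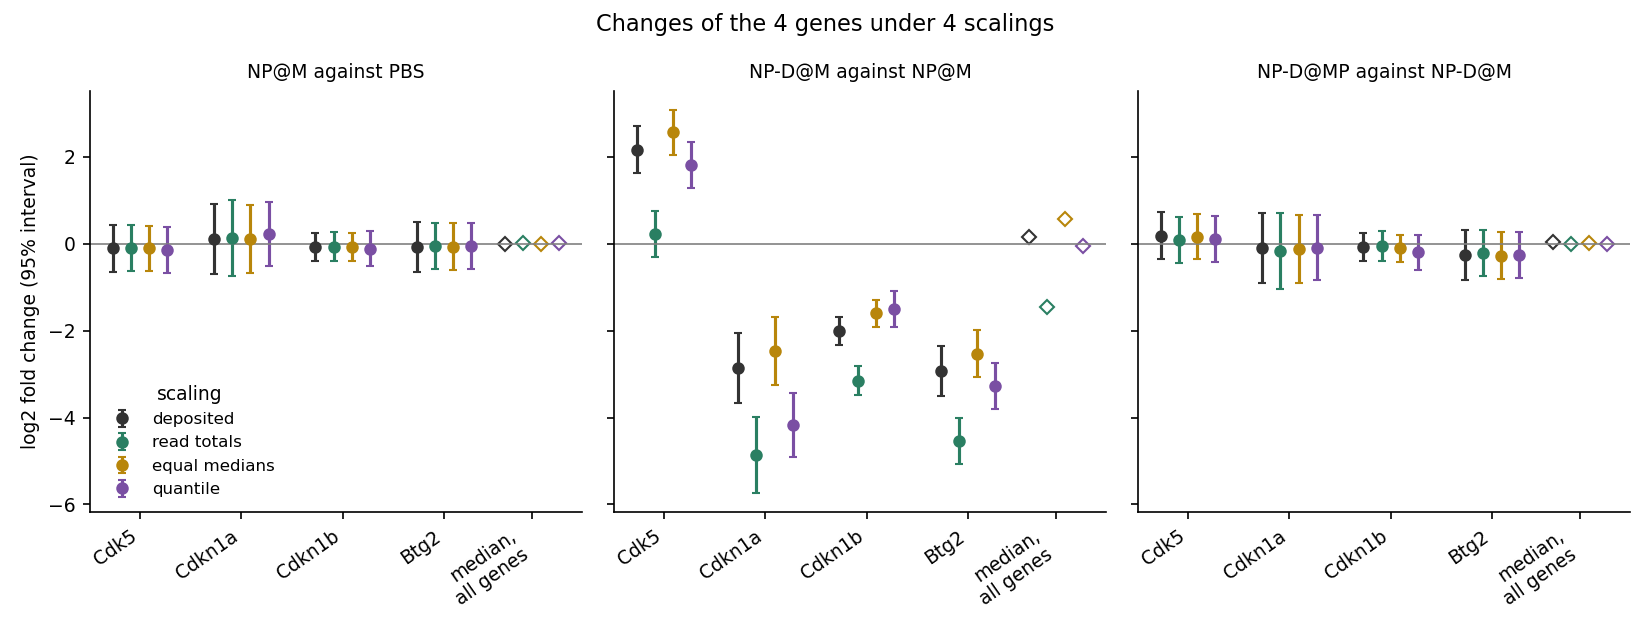
Fitted log2 changes of the 4 genes with 95% intervals, from limma over 12 libraries. Panels show NP@M against PBS, NP-D@M against NP@M and NP-D@MP against NP-D@M. Colours mark the deposited scaling, read totals, equal medians and quantile normalization, and open diamonds the median of all tested genes. Cdkn1a, Cdkn1b and Btg2 stay below 0 under all 4 scalings in NP-D@M against NP@M, whereas the interval of Cdk5 with read totals (-0.31 to 0.74) includes 0.

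Ratios of these genes within a library do not depend on how libraries are scaled to each other. The log2 ratio of Cdk5 to Cdkn1a was -3.67 ± 0.42 (SD, n = 6; range -4.07 to -2.90) without D and 1.79 ± 0.51 (SD, n = 6; range 1.08 to 2.40) with D. Cdkn1a RNA thus exceeded Cdk5 RNA per length in every library without D, and the order was the opposite in every library with D. The ratio moved by 5.46, or 44.2-fold (two-sided exact permutation test over 924 arrangements, adjusted p = 0.0021645 over 3 ratios, the smallest this design can give). The genes were chosen with earlier results of these data known, so the p-values of these ratios are no independent support. Between NP-D@M and NP@M 93% of tested genes did not overlap, and the share of other gene pairs that separate likewise was not computed. The test pools the groups with D, and also those without. Cdk5 to Btg2 moved further, by 6.54 or 93.0-fold, from -1.84 ± 0.10 to 4.70 ± 0.64 (SD, n = 6 each; exact permutation test, adjusted p = 0.0021645). For both ratios the 6 libraries with D lay above the 6 without. Without PBS replicate 3 and NP@M replicate 2 they moved by 5.69 and 6.58 (exact permutation test, adjusted p = 0.00714 for each).

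Ratios among the 3 genes that fell moved less, and not under every setting. The log2 ratio of Cdkn1a to Btg2 rose from 1.83 ± 0.35 to 2.90 ± 0.70 (SD, n = 6 each), a difference of 1.07 or 2.11-fold (exact permutation test, adjusted p = 0.0021645), or 0.89 without the 2 libraries that stood apart (adjusted p = 0.019 by the same permutation test). With 1 FPKM added to both genes that difference was 0.24 and no longer passed (exact permutation test, adjusted p = 0.273), and for NP-D@M against NP@M alone it was 0.73, where an exact test of 3 against 3 cannot go below p = 0.1. Btg2 had 9 to 40 reads per library with D. Ratios with Cdkn1b were not tested because it was at 0 in NP-D@MP replicate 1. Over the other 11 libraries, Cdk5 to Cdkn1b went from 0.22 ± 0.14 (n = 6) to 7.22 ± 0.64 (n = 5), and Cdkn1a to Cdkn1b from 3.89 ± 0.43 to 5.33 ± 0.60 (a difference of 1.44, which turned to -0.78 with 1 FPKM added to both genes). Cdk5 and Cdkn1b were thus at like levels per length without D, and Cdk5 was far above Cdkn1b with it. Cdkn1b to Btg2 overlapped between libraries with and without D (-2.69 ± 0.85 and -2.06 ± 0.14), and its difference of -0.63 turned to 1.02 with 1 FPKM added.

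**Figure D4:**
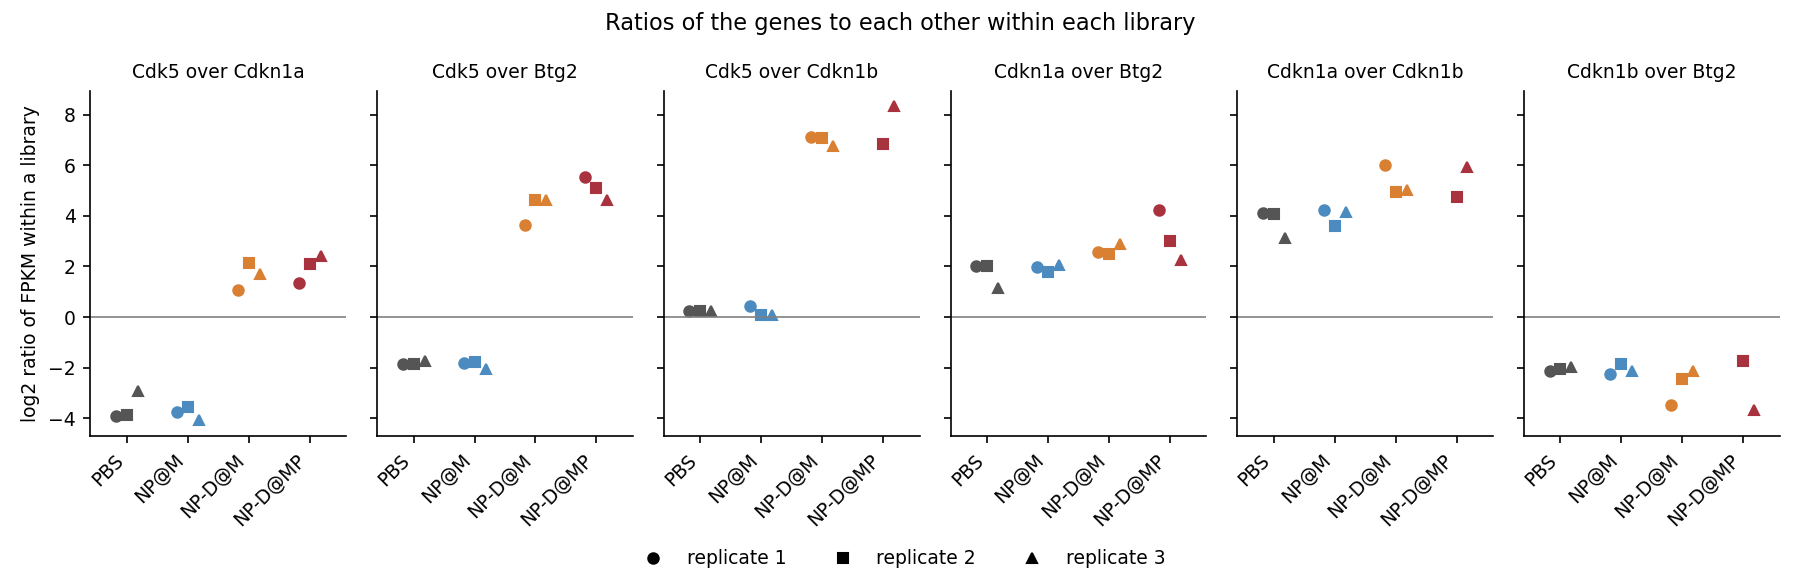
Log2 ratio of FPKM between pairs of the 4 genes in each library (points), with and without D. Cdk5 to Cdkn1a and Cdk5 to Btg2 are below 0 in all 6 libraries without D and above 0 in all 6 with D, and Cdkn1b to Btg2 overlaps.

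Without D the order by mean FPKM was Cdkn1a, Btg2, Cdk5 and Cdkn1b in both PBS and NP@M, and Cdk5 and Cdkn1b overlapped (3.51 to 5.58 against 3.32 to 4.70 FPKM). With D the order was Cdk5, Cdkn1a, Btg2 and Cdkn1b, and no neighbours in it overlapped in either group.

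NP@M against PBS concerns the treatment without D in its label. None of the 4 genes passed, against 0.0116% (1 gene) of the 8615 tested. The log2 changes were -0.10 for Cdk5 (95% interval -0.65 to 0.44), 0.11 for Cdkn1a (-0.69 to 0.91), -0.08 for Cdkn1b (-0.40 to 0.24) and -0.08 for Btg2 (-0.65 to 0.49). The limma adjusted p was 1 for each, and the ranges of the groups overlapped for all 4 genes, against 2.88% of tested genes without overlap. The intervals leave room for a change of up to about 0.91 in Cdkn1a, so a modest effect was not detectable at this spread. The sign of each of these changes depended on single libraries: without PBS replicate 3 that of Cdkn1a was -0.34, without NP@M replicate 2 those of Cdk5 and Btg2 were 0.01 and 0.10, and without PBS replicate 1 those of Cdkn1b and Btg2 were 0.01 and 0.06.

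NP-D@MP against NP-D@M concerns the P of the label where D is present. No tested gene passed (0%) in limma, although 428 had an unadjusted p under 0.05, and limma's voom on recovered reads called 1. With no filter on low values 8 genes passed, and without PBS replicate 3 and NP@M replicate 2, which enter the shared estimate of spread, 17 did. The log2 changes were 0.18 for Cdk5 (95% interval -0.36 to 0.73), -0.10 for Cdkn1a (-0.90 to 0.70), -0.09 for Cdkn1b (-0.41 to 0.24) and -0.26 for Btg2 (-0.83 to 0.31). For all 4 genes the limma adjusted p was 1 and the groups overlapped, while 14.7% of tested genes had no overlap. Cdk5 was 27.03 ± 9.17 FPKM (SD, n = 3) in NP-D@MP, with a range from 17.6 to 35.9 FPKM, and log2 differences between -0.36 and 0.73 are within the interval. Without NP-D@MP replicate 3, the highest for Cdk5, its change was -0.04, and without NP-D@M replicate 1 that of Cdkn1a was 0.10.

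Both groups with D were also set against PBS, which they share as control. For Cdk5 the log2 change was 2.06 in NP-D@M (limma adjusted p = 1.63e-05) and 2.24 in NP-D@MP (limma adjusted p = 8.42e-06). Cdkn1a changed by -2.76 and -2.86, Cdkn1b by -2.08 and -2.17, and Btg2 by -3.01 and -3.27, with limma adjusted p from 2.75e-07 to 3.3e-05. With read totals these 3 genes also passed against PBS in limma. Of the tested genes, 90.4% passed for NP-D@M (44.6% higher, 45.8% lower) and 91.5% for NP-D@MP (45.7% higher, 45.8% lower). In mean FPKM, Cdk5 was 4.82-fold and 5.70-fold higher than in PBS, and Btg2 was 14.0-fold and 19.3-fold lower. With read totals the changes of Cdk5 were 0.12 and 0.21 (limma adjusted p = 0.664 and 0.443), where 70.6% and 71.4% of tested genes passed.

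Other genes of the same pathways were read from 11 lists. These lists were drawn up with earlier results of these data known, and their counts stand beside 45.2% higher and 46% lower among all tested genes (9.12% and 61.7% with read totals). Unless read totals are named, values are those of the deposited scaling. Without PBS replicate 3 and NP@M replicate 2 the counts of each list were the same, except that 5 p53 targets were higher and 14 lower, and the median of the Cdk5 partners was -0.32. Cdkn1a and Cdkn1b belong to the CDK inhibitors, of which 3 others were tested. Cdkn2d (p19), an inhibitor of Cdk4 and Cdk6, was lower by 2.98 on the log2 scale (means of 8.80 and 0.249 FPKM in NP@M and NP-D@M; change -2.98, SE 0.26, limma adjusted p = 1.44e-06). Cdkn2b (p15) had 74 to 114 reads per library in NP@M, 0 or 1 in NP-D@M and 0 in all 3 libraries of NP-D@MP. It too passed the filter only through libraries without D. Cdkn2a, which encodes p16 and p19Arf, was higher by 1.24 (limma adjusted p = 0.00978) but not with read totals (0.08; limma adjusted p = 0.891). Cdkn1c (p57) was under the filter, at 2 to 13 reads in every library.

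Among activators and partners of Cdk5, 7 were tested besides the kinase, 3 higher and 4 lower, with a median change of -0.49. With read totals 1 was higher and 5 lower, with a median of -1.66. Cdk5r1, which encodes the activator p35, was under the filter, with 7 to 20 reads per library without D, 0 to 5 for NP-D@M and 0 throughout NP-D@MP. Ccni, which encodes cyclin I, a cyclin reported to bind Cdk5, rose from 42.0 to 310 FPKM between NP@M and NP-D@M (log2 change 2.85, SE 0.18, limma adjusted p = 1.55e-07) and also rose with read totals (0.71; limma adjusted p = 0.00123). Gstp1, a glutathione transferase reported to restrain Cdk5, was higher by 2.13 (limma adjusted p = 2.54e-05) but by 0.04 with read totals. Lmtk2, a membrane kinase that binds p35, went from 3.17 to 0.0652 FPKM in the same groups. It was lower under both scalings (-1.95 and -3.00 with read totals).

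The other CDKs mostly fell: of 11 tested besides Cdk5, 3 were higher and 8 lower with the deposited scaling, and 0 were higher and 9 lower with read totals. Cdk4, which drives entry into S phase with D-type cyclins, resembled Cdk5, rising from 20.4 to 78.9 FPKM (log2 change 1.93, limma adjusted p = 7.68e-05) but not with read totals (-0.18; limma adjusted p = 0.615). Cdk6 fell from 6.39 to 1.56 FPKM, and Cdk12 and Cdk13, kinases of RNA polymerase II, changed by -1.27 and -1.73. Cdk1, the mitotic kinase, changed by 0.61 with the deposited scaling and by -1.0 with read totals. Among 6 cyclins tested, 2 were higher and 4 lower, with changes of -1.92 for Ccne1 and -1.76 for Ccna2. With read totals 0 were higher and 6 lower, and Ccnd1, higher by 1.39 with the deposited scaling, was at -0.38 (limma adjusted p = 0.0477). Values for Cdk2 and Cdk9 were not used here.

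In the BTG and TOB family, Btg1 shared the direction of Btg2. It went from 72.5 FPKM in NP@M to 5.73 FPKM in NP-D@M (log2 change -3.45, SE 0.21, limma adjusted p = 1.46e-07), and Tob1 and Tob2 fell too. Btg3 was higher by 1.56 with the deposited scaling and at -0.15 with read totals. The CCR4-NOT deadenylase, to which these proteins bind, fell in all 8 tested subunits under both scalings, with medians of -1.72 and -3.19. Its scaffold Cnot1 went from 6.91 to 0.269 FPKM.

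Trp53 and its regulators fell in all 6 tested members under both scalings. Trp53, which encodes p53, went from 10.95 to 2.28 FPKM (log2 change -1.80, limma adjusted p = 0.000235), and Mdm2, its ubiquitin ligase and target, from 9.17 to 2.23 FPKM. Of 20 tested p53 targets other than Cdkn1a and Btg2, 6 were higher and 14 lower, with a median of -1.21. Sesn2, a stress-response regulator, changed by -3.86, more than Cdkn1a or Btg2. Bax, which permeabilises mitochondria, was higher by 2.13 but at 0.025 with read totals (limma adjusted p = 0.972). With read totals 0 of the 20 were higher and 15 lower.

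Regulators of p27 were split, with 6 higher and 4 lower of 10 tested and a median of 0.99, which became -0.85 with read totals, with 0 higher and 6 lower. Foxo3, a transcription factor that activates Cdkn1b, went from 7.63 to 0.324 FPKM in NP-D@M. Cks1b, the cofactor with which Skp2 recognises p27, rose from 5.23 to 34.5 FPKM (log2 change 2.48) but missed the threshold with read totals (0.49; limma adjusted p = 0.0982). Of 11 tested retinoblastoma and E2F genes, 4 were higher and 7 lower, and with read totals 0 were higher and 9 lower. E2f1 changed by 1.64 with the deposited scaling and -0.28 with read totals, whereas E2f2 and E2f4 fell by 1.70 and 1.69 on the log2 scale. Between NP-D@MP and NP-D@M no member of any of the 11 lists passed.

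Of the genes between Cdk5 and PD-L1, Irf2bp2, a repressor of PD-L1 that Cdk5 was reported to restrain, went from 21.4 to 2.49 FPKM (log2 change -2.58, limma adjusted p = 0.000102). Irf1, the main activator of PD-L1 after interferon, fell by 2.34 on the log2 scale. Cd274, which encodes PD-L1, was at 83.7 and 61.8 FPKM (-0.40; limma adjusted p = 0.16), while with read totals it changed by -2.54 (limma adjusted p = 2.51e-06). Against PBS with the deposited scaling, 3 of the 4 genes of this list were called lower in NP-D@M. In NP-D@MP all 4 were, Cd274 among them, where 45.8% of all tested genes were called lower.

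**Figure D5:**
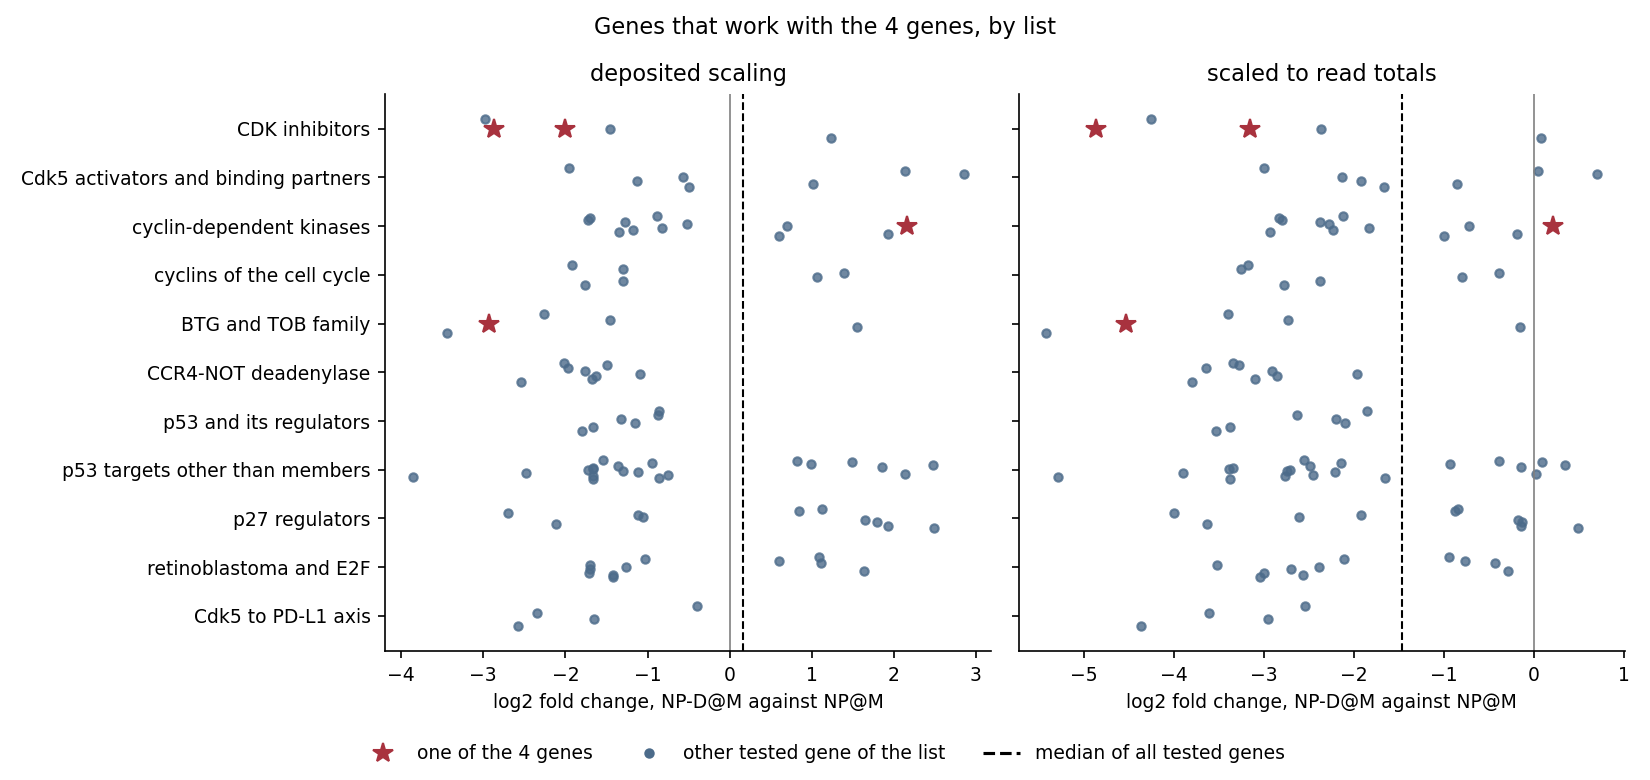
Log2 change between NP-D@M and NP@M of each tested gene of the 11 lists, with the deposited scaling and with read totals. Stars mark Cdk5, Cdkn1a, Cdkn1b and Btg2, points the other genes, and the dashed line the median of all tested genes. All 8 CCR4-NOT subunits, all 6 genes of p53 and its regulators and all 4 genes of the Cdk5 to PD-L1 axis lie below 0 under both scalings, though Cd274 (-0.40) did not pass with the deposited one.

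Genes whose profiles over the 12 libraries most resembled each of the 4 were found by the root mean square difference of centred log2 values among 3496 candidates. They are given as a description, since all points share the same libraries and the contrast with D dominates. For Cdk5 the nearest was Ptpmt1, a mitochondrial phosphatase (difference 0.153, Pearson r 0.991 over 12 libraries), then Naxd and Ssr2. For Cdkn1a they were Mknk2, a kinase of the translation factor eIF4E (0.170, r 0.993), Fbxl14 and Rab35. For Cdkn1b they were Pacsin2 (0.129, r 0.994), Adipor2 and Arhgap30. For Btg2 they were Plscr1, a phospholipid scramblase (0.161, r 0.995), Rab35 and Pygo2, so that Rab35 was near both Cdkn1a and Btg2.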

How the data were processed

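The table holds values as the authors deposited them, called FPKM here. No unit is in its header. Values times gene length are whole multiples of 1 step per library, within 0.05 for 100% of values, which gives the reads. It shows reads divided by length and by a constant of the library, but cannot tell FPKM from other units of that form. How libraries were scaled and genes picked is not given in the sources used here. Bowtie 0.12.2 and build mm8 appear in the submitters' processing notes, while identifiers matched GENCODE release M21 for 11665 genes (11219 with equal coordinates). The labels give marrow as tissue, while the extraction protocol speaks of retinas. Genes with at least 1 FPKM in at least 3 libraries were tested (8615). A gene could pass through libraries without D alone, as Cdkn1b and Cdkn2b did, and its test then adds no support to a fall. Log2(FPKM + 1) was fitted with limma 3.58.1 (trend and robust) in R 4.3.3, with 4 group means over 12 libraries, two-sided, Benjamini-Hochberg adjusted over all tested genes in each of 5 comparisons and called under 0.05. The fit was also run on simulated data in which few genes changed and the scale did not differ between groups. That run does not show how the fit behaves with changes as wide and scales as unlike as here. Ratios, motifs and exact permutation tests were computed in Python 3.11.15 with scipy 1.17.1. Alternatives were other scalings, filters, pseudocounts, fits and left-out libraries. One was chosen after seeing the data: read totals with PBS replicate 3 and NP@M replicate 2 left out together.

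The 4 genes and all lists were chosen with earlier results of these data known. Named were the 4 genes, up to 4 genes per list with the smallest adjusted p in NP-D@M against NP@M, 8 genes of interest (Irf2bp2, Irf1, Cd274, Cdk1, Cdk4, Cdk6, Trp53 and Mdm2), and the 3 nearest profiles per gene among those averaging at least 5 FPKM. Bax, Cdk5r1 and Cdkn1c fall outside that rule and were chosen with their values known. The floor of 3 reads covers counting error alone, as PCR copies of a molecule were not told apart.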

Additional observations from a re-analysis of the deposited data

How the results depend on the processing

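Cdkn1a, Cdkn1b and Btg2 kept their fall and passed the threshold in each comparison of a group with D against NP@M or PBS, under all alternatives run (17, 16 and 17). Cdkn1b had no value with a filter of 5 FPKM, which it did not pass. Cdk5 kept its direction and call in 14 of 17. In NP-D@M against NP@M it was 0.22 with read totals (limma adjusted p = 0.436), 0.24 with voom (0.456) and 0.080 with read totals and both libraries that stood apart left out (0.754). Against PBS these were 0.12, 0.13 and -0.030 for NP-D@M (adjusted p = 0.664, 0.678 and 0.909 in limma) and 0.21, 0.22 and 0.059 for NP-D@MP (0.443, 0.470 and 0.816). With equal medians and quantile normalization Cdk5 was 2.56 and 1.82 in NP-D@M against NP@M.

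For NP@M against PBS, 1 gene was called, and 0 under quantile normalization, no filter, a filter of 5, a pseudocount of 0.1, no trend, only the groups compared, voom and both libraries left out. Leaving out 1 library gave 0 to 1 genes called. Leaving out single libraries moved Cdk5 from -0.21 to 0.011, Cdkn1a from -0.34 to 0.39, Cdkn1b from -0.19 to 0.014 and Btg2 from -0.24 to 0.10. Cdkn1a was -0.073 with both libraries left out and -0.074 with read totals besides. For NP-D@MP against NP-D@M, 0 genes were called, but 8 with no filter, 2 with a pseudocount of 0.1, 1 with voom, 17 with both libraries left out, 1 with read totals and both left out, and 0 to 4 without 1 library. There, leaving out single libraries moved Cdk5 from -0.042 to 0.45 and Cdkn1a from -0.22 to 0.10. With a filter of 5, which tests fewer genes, 4422 were called in NP-D@M against NP@M (7855 otherwise), 4388 in NP-D@M against PBS (7788) and 4447 in NP-D@MP against PBS (7882).

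Among ratios with D against without, 1 added to both FPKM values gave 0.24 for Cdkn1a to Btg2 (exact permutation adjusted p = 0.273), 4.29 for Cdk5 to Cdkn1b, -0.78 for Cdkn1a to Cdkn1b and 1.02 for Cdkn1b to Btg2. NP-D@M against NP@M alone gave 5.43, 6.16 and 0.73 for Cdk5 to Cdkn1a, Cdk5 to Btg2 and Cdkn1a to Btg2, where 3 against 3 cannot go below p = 0.1 in the exact test. Of 42 named genes of the lists, read totals left 33 with the same call and reversed 5. With read totals, voom, and read totals with both libraries left out, Ccnd1 was -0.38, -0.46 and -0.46, Btg3 -0.15, -0.19 and -0.056, Ei24 -0.14, -0.15 and -0.086, Rnf123 -0.18, -0.20 and -0.11, and E2f1 -0.28, -0.31 and -0.44. Under the last of these Cdkn2a was -0.17 and Gstp1 -0.18, and with equal medians Cd274 was 0.00099. The median gene moved from 0.16 to -1.47 between the deposited scaling and read totals. No paired analysis was possible because the labels number the libraries through the series and the groups share no replicate numbers.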
